A study of Mus musculus with 6 samples.

Results

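Atoh1, Neurod1, Neurod2, Neurod6, Neurog1, Neurog2, Nhlh1, Nhlh2 and Insm1 were followed in cultured mouse cerebellar granule neurons (CGNs) given the EZH2 inhibitor GSK-126 or the vehicle DMSO. These 9 genes were taken by name from the 55341 gene symbols of the count tables, and each was listed in all 6 libraries. RNA-seq was available for 3 DMSO and 3 GSK-126 cultures, and the replicate numbers 1 to 3 occur in both groups. The labels name the agent and the replicate, give the source as cerebellum, and state neither dose nor time. According to the study's methods, CGNs were isolated from pooled cerebella of CD-1 IGS pups on a Percoll gradient, received AraC against dividing non-neuronal cells, and were exposed to the inhibitor a single time some days before harvest. The methods describe addition on different days, and the labels do not say which applies here. Apart from the inhibitor, the handling described is the same for both groups, and no genotype differs between them. The comparison asks what loss of EZH2 activity does to the RNA of these genes.

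Basic helix-loop-helix (bHLH) factors of the proneural class bind DNA as dimers with E proteins at short sites called E-boxes and start neurogenesis, and related factors of the NeuroD and NHLH families act later, during neuronal differentiation. In the cerebellum Atoh1 specifies granule cell progenitors, and Neurod1 is needed for the survival and differentiation of granule neurons. EZH2 is the catalytic subunit of PRC2, which deposits the repressive mark H3K27me3, and developmental transcription factor genes are classical PRC2 targets. Insm1 is a zinc-finger factor of neuronal and neuroendocrine differentiation, so the other 8 genes are the bHLH factors of the group.

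The 9 genes lie at separate loci in the GENCODE M21 annotation of GRCm38. Neurod1 is at chr2:79452521-79456751 on the minus strand, Neurod2 at chr11:98325415-98329648 on the minus strand, and Neurod6 at chr6:55677822-55681263 on the minus strand. Nhlh1 is at chr1:172052292-172057573 on the minus strand, and Nhlh2 at chr3:102010076-102015492 on the plus strand. Neurog2 is at chr3:127633135-127635631 on the plus strand, Neurog1 at chr13:56250478-56252163 on the minus strand, Atoh1 at chr6:64729125-64731245 on the plus strand, and Insm1 at chr2:146221921-146225020 on the plus strand. Of the exon bases of Neurod1, 5.64% overlap the noncoding gene Gm26755 on the opposite strand and 7.37% overlap Cerkl on the same strand. Reads there cannot be assigned with certainty, and the exons of the other 8 genes overlap no other gene.

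A promoter window from RefSeq (GRCm38.p6, 250 bases before the start and 50 from it) was found for 8 of the 9 genes. The stretches before any annotated exon are shown for Neurod1, the gene called in the paired fit. Its close relative Neurod2, whose mean differed little between groups, is also shown. Neurod6 and Nhlh2 are added because their unadjusted p-values in the same paired fit were the lowest after that of Neurod1. Capitals mark each E-box, searched as CANNTG, which reads the same on both strands. The sequences are written 5′ to 3′ along the strand of the gene and come from chr2:79456752-79456886 (minus), chr11:98329649-98329895 (minus), chr6:55681264-55681513 (minus) and chr3:102009895-102010075 (plus).
Neurod1: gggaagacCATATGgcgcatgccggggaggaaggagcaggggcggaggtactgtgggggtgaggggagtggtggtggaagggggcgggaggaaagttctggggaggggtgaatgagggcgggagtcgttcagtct
Neurod2: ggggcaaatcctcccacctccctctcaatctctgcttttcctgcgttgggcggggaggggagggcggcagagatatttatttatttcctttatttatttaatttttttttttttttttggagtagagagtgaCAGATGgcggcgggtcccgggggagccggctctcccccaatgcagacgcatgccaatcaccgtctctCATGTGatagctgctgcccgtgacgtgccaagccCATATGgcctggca
Neurod6: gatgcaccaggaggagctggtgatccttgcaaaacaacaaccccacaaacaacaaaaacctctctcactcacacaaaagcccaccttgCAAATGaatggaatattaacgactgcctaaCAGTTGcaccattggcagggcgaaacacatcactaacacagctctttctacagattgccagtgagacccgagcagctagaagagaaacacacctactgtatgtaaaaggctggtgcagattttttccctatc
Nhlh2: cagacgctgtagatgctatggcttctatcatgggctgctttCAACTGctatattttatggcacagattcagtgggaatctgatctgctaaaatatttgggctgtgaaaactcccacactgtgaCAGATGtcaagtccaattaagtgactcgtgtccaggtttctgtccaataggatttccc

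Over the whole windows Neurod1 held 1 E-box, Neurod2 held 3, Neurod6 held 2 and Nhlh2 held 4, while Atoh1 and Neurog2 held 0. At least 1 E-box was present in 72.3% of all 32851 windows and at least 4 in 6.49%, so a match of this kind is common. The form CATATG, found in Neurod1 and Neurod2, occurred in 3.91% of all windows, and CAGATG, found in Neurod2, Nhlh1 and Nhlh2, in 17.2%. CpG content differed widely among the windows. Neurog1 had 32 CpG dinucleotides, Neurod1 26, Atoh1 20 and Neurod2 16, against 3 in Neurod6 and 2 each in Nhlh1 and Nhlh2, and the median of all windows was 7.

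The libraries held from 8058760 to 12047837 counts over genes. Levels are given as CPM, the count of a gene per 1000000 counts of its library after TMM scaling, and 3 counts, taken as the floor of detection, stood for 0.249 to 0.374 CPM. Of the 9 genes, 7 passed the filter on low counts, as did 16343 genes in all, and the 2 others were Atoh1 and Neurog1. Granule neuron markers were abundant. The transcription factor Pax6, a defining marker named here after its values were seen, had 176 ± 10.3 CPM in DMSO and 181 ± 11 CPM in GSK-126 (SD, n = 3 each). RNA of other cells was also present, since 6 astrocyte markers summed to 6914, 2190 and 4118 CPM in DMSO replicates 1 to 3 and to 7152, 2280 and 3618 CPM in the GSK-126 replicates. Replicate 2 thus had the lowest astrocyte signal in both groups.

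Set per kilobase of exon, which allows genes to be compared, Neurod1 and Neurod2 made up most of the RNA of the group. In DMSO, Neurod1 stood at 259 ± 41.9 CPM per kilobase and Neurod2 at 87.3 ± 10.7, followed by Insm1 at 18.7 ± 0.837 and Nhlh2 at 4.27 ± 0.616 (SD, n = 3). The ranges of these 4 genes over the DMSO libraries did not touch. Below them came Neurod6 at 1.74 ± 0.312, Nhlh1 at 1.44 ± 0.21 and Neurog2 at 0.911 ± 0.659 CPM per kilobase, and the ranges of these neighbours overlapped. Among the 16343 genes ranked by level per kilobase, Neurod1 was at position 79 in DMSO and 146 in GSK-126, and Neurod2 at 402 and 420. Insm1 was at position 3092 in DMSO and 2577 in GSK-126, and the other 4 genes past the filter ranked from 10012 to 14794.

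Neurod1 was lower with GSK-126 in each of the 3 replicate pairs, and it was the 1 gene of the group that passed the test in the fit paired by replicate number. It had 654, 837 and 627 CPM in DMSO replicates 1, 2 and 3, and 350, 681 and 436 CPM in the GSK-126 replicates of the same numbers. The highest level in each group was in replicate 2, and GSK-126 replicate 2 lay above DMSO replicates 1 and 3, so the groups overlapped. The mean went from 706 ± 114 to 489 ± 171 CPM (SD, n = 3), and the log2 ratios within pairs were -0.90, -0.30 and -0.53. With treatment as the only term, edgeR's quasi-likelihood test gave a log2 fold change of -0.53 (SE 0.251, 95% interval -1.10 to 0.04) and a Benjamini-Hochberg adjusted p of 0.825. With the replicate number as a block the log2 fold change was -0.58 (SE 0.121, 95% interval -0.84 to -0.31) with an adjusted p of 0.0265, and by this estimate Neurod1 fell by 32.9%. Neurod1 ranked 361 of 16343 genes by that p-value. Without replicate 2 the blocked log2 fold change was -0.70 with an adjusted p of 0.0536, so the call was lost, while without replicates 1 or 3 it was -0.41 and -0.60 with adjusted p of 0.0285 and 0.048. In bulk RNA fewer cells that express a gene and less RNA per cell cannot be told apart.

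**Figure D1:**
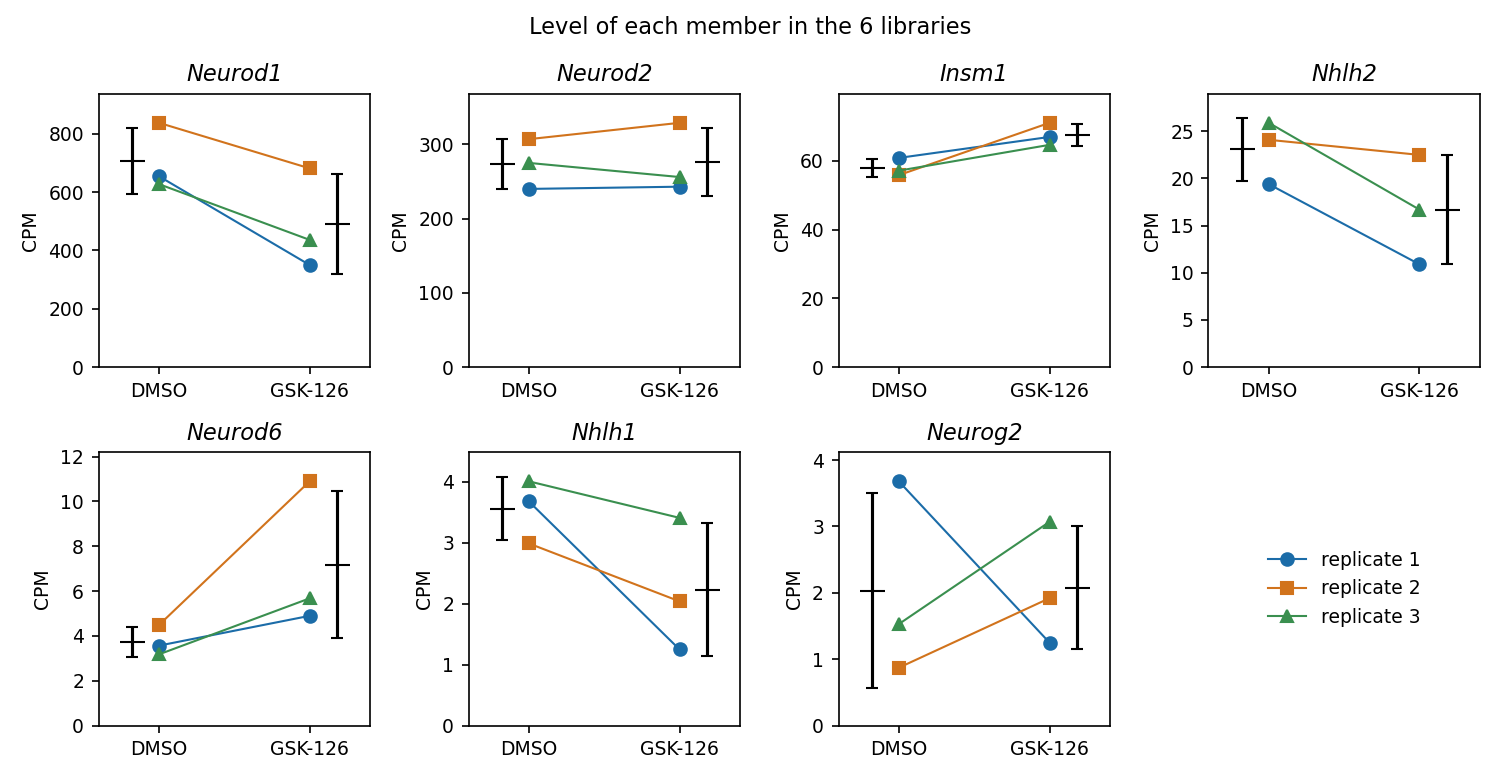
CPM of the 7 genes past the filter in each library, DMSO on the left and GSK-126 on the right of each panel, with lines joining libraries of the same replicate number and black bars giving mean ± SD (n = 3). Neurod1, Nhlh1 and Nhlh2 were lower with GSK-126 in 3 of 3 pairs and Neurod6 and Insm1 higher in 3 of 3, and each vertical axis starts at 0 on its own scale.

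Neurod2 encodes a factor of the same family that takes part in the differentiation of excitatory neurons, and its mean level was nearly the same in both groups. Its levels were 240, 307 and 275 CPM in DMSO and 243, 329 and 256 CPM in GSK-126. Replicate 2 was again the highest in both groups, the groups overlapped, and the pair ratios had both signs, at 0.02, 0.10 and -0.11. By edgeR the log2 fold change was 0.01 (SE 0.165, adjusted p = 0.995), and the block moved it to 0.00 (SE 0.101, adjusted p = 0.991). The blocked 95% interval ran from -0.22 to 0.23 on the log2 scale.

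Neurod6, a factor mainly known from excitatory neurons of the forebrain, was scarce and higher with GSK-126 in each pair. It had 31, 36 and 27 counts, or 3.57, 4.49 and 3.18 CPM, in DMSO. In GSK-126 it had 59, 91 and 50 counts, or 4.9, 10.9 and 5.68 CPM. The lowest GSK-126 library lay above the highest DMSO library, and replicate 2 was the highest in both groups. The mean was 3.74 ± 0.671 CPM in DMSO and 7.17 ± 3.28 CPM in GSK-126. The log2 fold change was 0.93 (SE 0.382, 95% interval 0.06 to 1.80, edgeR) with an unadjusted p of 0.0397 and an adjusted p of 0.824. With the block it was 0.87 (SE 0.304, 95% interval 0.20 to 1.54, adjusted p = 0.17), so the difference did not pass the threshold. Without GSK-126 replicate 2 the unblocked log2 fold change was 0.50.

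Neurod6 is known from the forebrain, and forebrain markers were scarce here. Of 6 cortical excitatory neuron markers, 2 passed the filter and 0 were called with the block. That fit called 2.23% of all genes higher and 1.42% lower. Of the 2 markers past the filter, Bcl11b had 1.08 ± 0.351 CPM in DMSO and 1.06 ± 0.333 in GSK-126. Emx1 had 0 counts in every library. The 6 markers summed to 7.54 to 10.8 CPM in DMSO and 7.06 to 14.8 CPM in GSK-126.

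Insm1 was slightly higher with GSK-126 and had the smallest SD relative to its mean among the 7 genes. It had 60.8, 55.8 and 57.1 CPM in DMSO and 66.9, 71.0 and 64.6 CPM in GSK-126. The groups did not overlap, and the means were 57.9 ± 2.59 and 67.5 ± 3.23 CPM. By edgeR the log2 fold change was 0.22 without the block (SE 0.119, adjusted p = 0.825) and also with it (SE 0.115, 95% interval -0.03 to 0.47, adjusted p = 0.379). The difference did not pass the test.

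Nhlh1 and Nhlh2, a pair of closely related factors expressed in newly formed neurons, both had lower estimates with GSK-126 in every pair, and neither passed the test. Nhlh2 had 19.4, 24.1 and 25.9 CPM in DMSO and 10.9, 22.5 and 16.7 CPM in GSK-126, and GSK-126 replicate 2 lay above DMSO replicate 1. Its mean was 23.1 ± 3.34 CPM in DMSO and 16.7 ± 5.79 in GSK-126, and its blocked log2 fold change was -0.52 (SE 0.187, 95% interval -0.93 to -0.11, adjusted p = 0.186, edgeR). Nhlh1 was rarer, with 3.68, 2.99 and 4.01 CPM in DMSO and 1.25, 2.04 and 3.41 CPM in GSK-126. GSK-126 replicate 3 fell within the DMSO range, and the other GSK-126 libraries lay under it. Its blocked log2 fold change was -0.75 with a wide interval, from -1.68 to 0.17 (SE 0.421, adjusted p = 0.411).

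The proneural factors that act in progenitors were scarce or not detected. Neurog2, which starts neurogenesis in excitatory lineages, had 32, 7 and 13 counts in DMSO and 15, 16 and 27 counts in GSK-126. It was higher in replicates 2 and 3 and lower in replicate 1, and its blocked log2 fold change of 0.10 had an interval from -1.19 to 1.38 (adjusted p = 0.961, edgeR), wide enough to hold a change of 1 log2 unit in either direction. Atoh1 had 6 counts in DMSO replicate 3, 3 counts in GSK-126 replicate 1, and 0 in the other 4 libraries. Neurog1 had 0 counts in all 6 libraries, which allows up to 0.249 to 0.374 CPM depending on the library and covers counting error only. RNA of dividing cells was present in the same libraries, as the 6 proliferation markers, led by Top2a and Mki67, summed to 274 to 406 CPM in DMSO and 309 to 414 CPM in GSK-126.

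Counted together, the 7 tested genes included 0 called by edgeR with treatment as the only term, where 0% of the 16343 genes passed. At an unadjusted p under 0.05 that fit marked 1 of the 7, Neurod6, against 6% of all genes, which were 981 genes. Without the block DESeq2 called 0 of the 7, against 0.361% of all genes, and limma called 0, against 0%. With the block, 0 of the 7 were called higher, against 2.23% of all genes, and 1 was called lower, against 1.42%. At an unadjusted p under 0.05 the blocked fit marked 3 of the 7, Neurod1, Neurod6 and Nhlh2, against 16.7% of all genes. The CPM of the groups did not overlap for 2 of the 7, Neurod6 and Insm1, against 10.9% of all genes. The direction was shared by 3 of 3 pairs for 5 of the 7, against 39% of all genes. The median blocked log2 fold change was 0.00 over the 7 genes and -0.00 over all genes, with 2 of the 7 higher and 3 lower in 3 of 3 pairs.

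**Figure D2:**
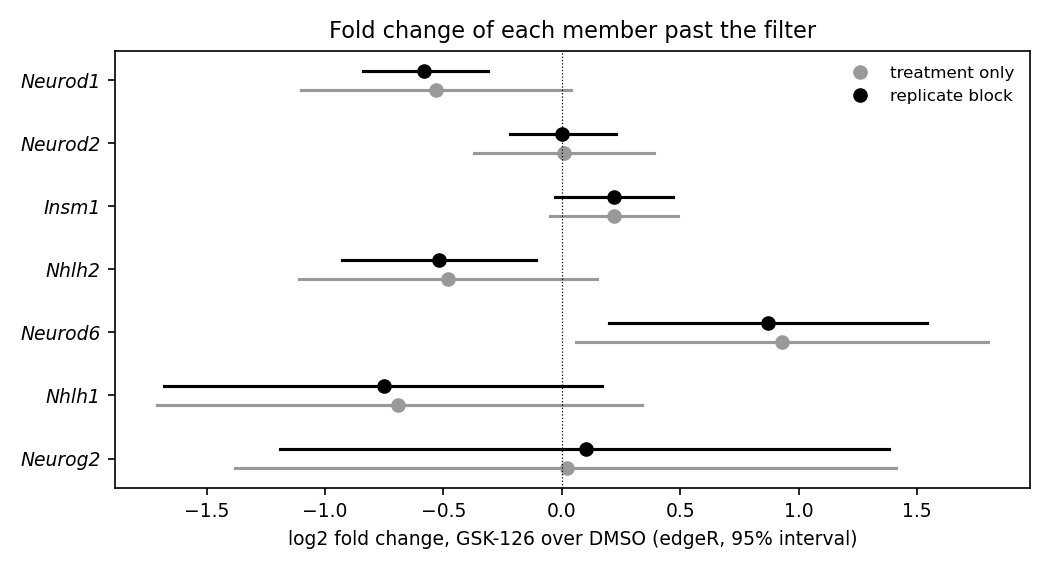
Log2 fold change of GSK-126 over DMSO for the 7 genes past the filter, with 95% intervals from edgeR with treatment as the only term (grey) and with the replicate block (black). The blocked interval of Neurod1 runs from -0.84 to -0.31, that of Neurod2 from -0.22 to 0.23 and that of Neurod6 from 0.20 to 1.54, before any adjustment for the number of genes tested.

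Since Neurod1 dominated the group, its difference carried the summed level. The 9 genes together had 344, 431 and 345 CPM per kilobase in DMSO and 233, 388 and 270 in GSK-126, lower in each pair. Neurod1 made up 69.7%, 71.2% and 66.7% of this sum in DMSO and 55.1%, 64.3% and 59.0% in GSK-126. Neurod2 made up 22.2%, 22.7% and 25.4% in DMSO and 33.3%, 27.0% and 30.1% in GSK-126. The shares of both genes did not overlap between groups, and because shares sum to a whole, a lower Neurod1 raises the share of the others.

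**Figure D3:**
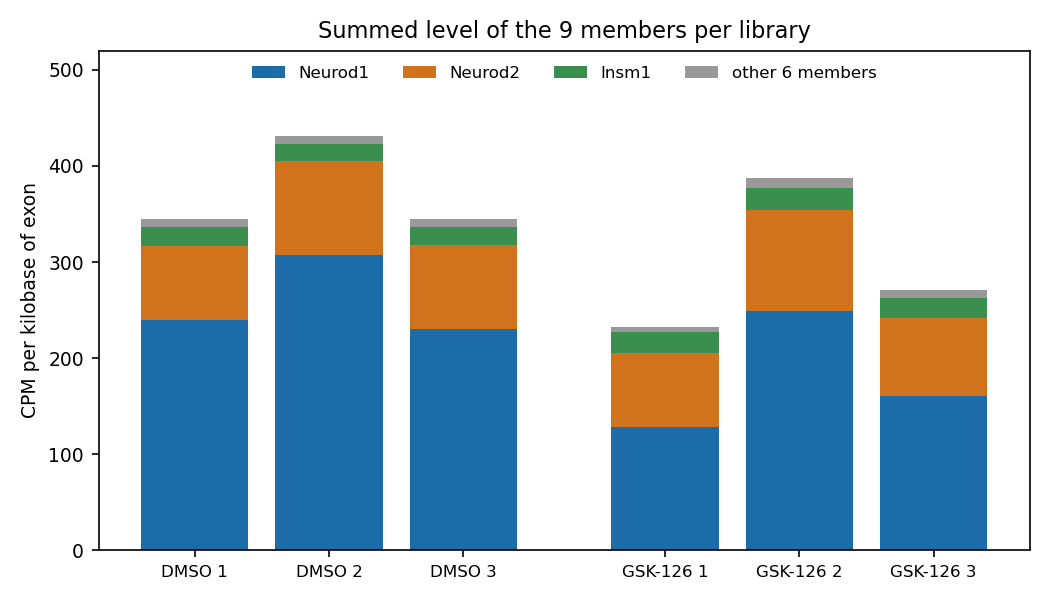
Summed level of the 9 genes in each library as CPM per kilobase of exon (linear axis from 0), with bars divided into Neurod1, Neurod2, Insm1 and the other 6 genes. Neurod1 is the largest segment in every library, from 55.1% of the bar in GSK-126 replicate 1 to 71.2% in DMSO replicate 2.

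A ratio of counts between 2 genes within a library is free of library scaling. Of 5 pairs compared, Neurod1 to Neurod6 separated the groups most widely, with 183, 187 and 197 in DMSO and 71.5, 62.2 and 76.7 in GSK-126. This was a difference of -1.44 in mean log2 ratio. Neurod1 to Neurod2 was 2.73, 2.72 and 2.28 in DMSO and 1.44, 2.07 and 1.7 in GSK-126, a difference of -0.58. The ratio differed by -0.80 for Neurod1 to Insm1 and by -0.86 for Neurod2 to Neurod6, again without overlap between groups. For each of these 4 pairs the exact two-sided permutation p was 0.1 (adjusted p = 0.125 over the 5 pairs), and 0.1 is the smallest that 3 against 3 libraries allow. With libraries paired by replicate number the exact permutation p was 0.25, the smallest possible in that test. The 4 ratios share genes, so they are not separate results. Nhlh1 to Nhlh2 overlapped between groups, with a difference of -0.26 and an exact permutation p of 0.5. The pairs were chosen after the levels had been seen, so these ratios describe the libraries.

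**Figure D4:**
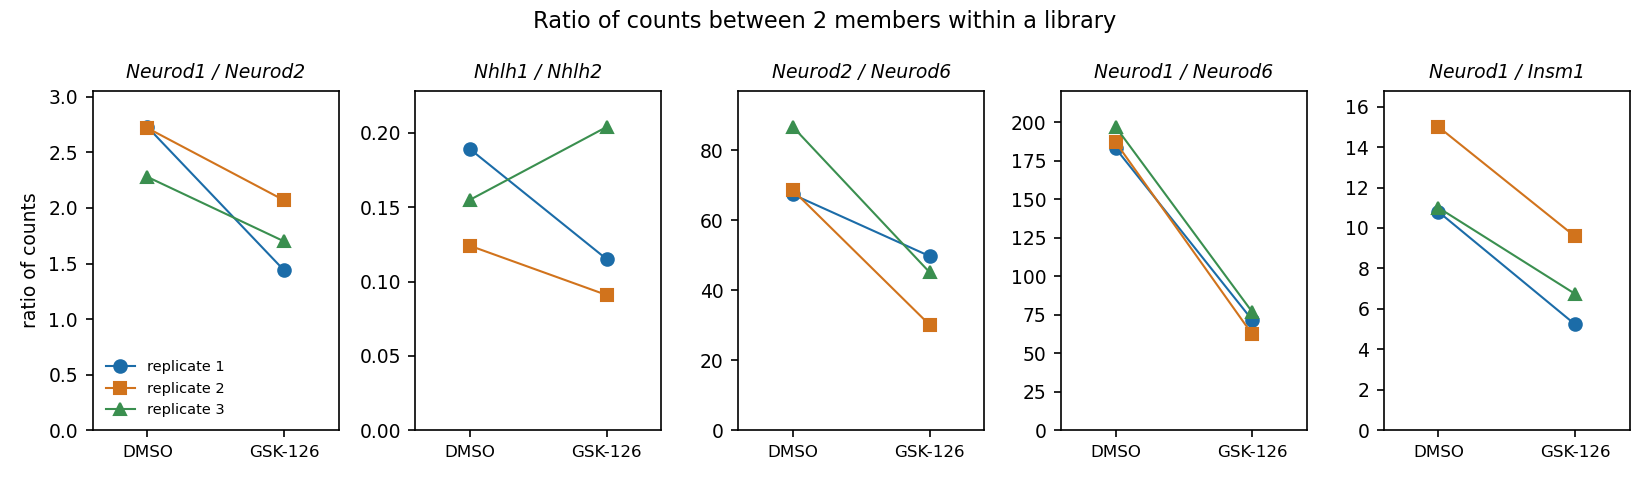
Ratio of counts between 2 genes in each library for 5 pairs of genes, DMSO on the left and GSK-126 on the right, with lines joining libraries of the same replicate number and linear axes from 0. The ratio of Neurod1 to Neurod6 lies between 183 and 197 in DMSO and between 62.2 and 76.7 in GSK-126, and the ratio of Nhlh1 to Nhlh2 overlaps between groups.

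Across the 6 libraries, the log2 CPM of Neurod1 and Nhlh2 had a Pearson r of 0.90, Nhlh1 and Nhlh2 of 0.71, and Neurod6 and Insm1 of 0.80, whereas Neurod1 and Insm1 had -0.50. These values are descriptions over 6 points that share treatment and replicate. Among the 5 genes most like Neurod1 over the 6 libraries were Slitrk4, a synaptic adhesion gene, with an r of 0.997, and Gopc and Zbtb18 with r of 0.995 each. Slitrk4 fell with GSK-126 in the blocked edgeR fit, from 41.5 to 22.5 CPM (log2 fold change -1.0, adjusted p = 0.0221). Zbtb18, a transcriptional repressor, had a log2 fold change of -0.39 (adjusted p = 0.0684). Such likeness was common, as 356 of 16342 genes had an r above 0.95 with Neurod1.

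The partners of the bHLH factors did not pass the test in either direction. All 3 E proteins passed the filter and 0 were called with the block, which called 2.23% of all genes higher and 1.42% lower. Tcf4 had 446 ± 30.3 CPM in DMSO and 443 ± 12.5 in GSK-126 (blocked 95% interval of the log2 fold change -0.22 to 0.21), and Tcf12 had 177 ± 25.0 and 184 ± 14.9 CPM. Of 10 genes of the Id, Hes and Hey families, which include inhibitors of bHLH activity, 0 were called, with a median blocked log2 fold change of 0.16. The most abundant were Id2, with 230 ± 65.7 CPM in DMSO and 248 ± 7.86 in GSK-126, and Id3, with 123 ± 39.4 and 144 ± 64.0 CPM.

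Of 13 other neural bHLH factors 7 passed the filter, and they likewise gave 0 calls with the block. That fit called 2.23% of all genes higher and 1.42% lower. Bhlhe22, a repressor found in several excitatory neuron types, had 120 ± 12.5 CPM in DMSO and 118 ± 1.4 in GSK-126, and Olig1, of the oligodendrocyte lineage, had 25.9 ± 3.36 and 28.7 ± 7.61 CPM. Neurog3 had 0 counts in every library. The 9 partners through which Insm1 represses transcription, among them the demethylase Kdm1a and the deacetylase Hdac2, gave 0 calls. Of the 9, 6 were lower with GSK-126 in 3 of 3 pairs, as were 19.3% of all genes, and the median blocked log2 fold change was -0.25. Hdac2 had 146 ± 8.89 CPM in DMSO and 118 ± 13.0 in GSK-126 (log2 fold change -0.31, adjusted p = 0.156), and Kdm1a had 124 ± 8.1 and 119 ± 3.13 CPM.

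Of 12 genes known as targets of proneural factors, 11 passed the filter. With the block 0 were called higher, against 2.23% of all genes, and 2 were called lower, against 1.42%. Eomes, a T-box factor that follows Neurog2 in the cortex and marks unipolar brush cells in the cerebellum, fell from 12.1 ± 6.01 to 5.76 ± 3.42 CPM (log2 fold change -1.12, SE 0.25, adjusted p = 0.0332, edgeR). Cbfa2t3, a corepressor of the MTG family, fell from 85.1 ± 18.5 to 54.7 ± 16.3 CPM (log2 fold change -0.66, SE 0.132, adjusted p = 0.0203). The median over the 11 genes was -0.07, and 3 were higher and 4 lower in 3 of 3 pairs. Of all genes, 39% shared 1 direction, higher or lower, in 3 of 3 pairs.

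The summed level of the granule neuron markers was lower with GSK-126, although its members did not all go one way. The sum over 10 genes was 4077, 5413 and 4327 CPM in DMSO and 3005, 4412 and 3536 CPM in GSK-126, lower in each pair and highest in replicate 2 of both groups, as was Neurod1. With the block 4 of the 10 were called lower, against 1.42% of all genes, and 0 higher, against 2.23%, with a median log2 fold change of -0.32. Those 4 were Slc17a7, a vesicular glutamate transporter (-2.16, adjusted p = 0.00034), Gabra6, a GABA receptor subunit of mature granule neurons (-1.42, adjusted p = 0.00034), Etv1, an ETS factor (-1.06, adjusted p = 0.00139), and the neuronal splicing factor Rbfox3 (-0.59, adjusted p = 0.018). Of the other 6, Barhl1, a homeobox factor of granule cells, was higher with GSK-126 in 3 of 3 pairs without overlap between groups, from 79.9 ± 8.22 to 106 ± 22.2 CPM (0.39, adjusted p = 0.213). Reln had pair ratios of both signs (-0.13, adjusted p = 0.708), and Pax6 had a log2 fold change of 0.04 (95% interval -0.18 to 0.27, adjusted p = 0.895). Zic1 (-0.37, adjusted p = 0.0535), Zic2 (-0.27, adjusted p = 0.212) and Cntn2 (-0.23, adjusted p = 0.292) were lower in 3 of 3 pairs and were not called. Of the 10 markers, 7 were lower in 3 of 3 pairs, against 19.3% of all genes, and 1 was higher. The 6 uncalled genes are named after their values were seen. The part of cell composition in the Neurod1 difference was not tested.

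Markers of other cells gave few calls with the block, which called 2.23% of all genes higher and 1.42% lower. Of the cerebellar GABAergic neuron markers 7 of 8 passed the filter and 1 was called lower, Slc32a1, the vesicular transporter of inhibitory neurons (-0.58, adjusted p = 0.0283). Their sum was 215 to 277 CPM in DMSO and 173 to 210 in GSK-126, lower in each pair. Of the 7, 4 were lower and 0 higher in 3 of 3 pairs, and 19.3% of all genes were lower in 3 of 3. The median log2 fold change was -0.27, near the -0.32 of the granule neuron markers. Unipolar brush and nuclear neuron markers summed to 107 to 116 CPM in DMSO and 108 to 169 in GSK-126, and 4 of 6 passed the filter with a median log2 fold change of 0.56. Slc17a6 carried most of that sum, with 95.2 ± 0.98 CPM in DMSO and 119 ± 29.3 in GSK-126. Under its other name, Vglut2, the study lists this gene among late CGN genes, so the sum is not particular to these cells. Eomes fell, whereas Lmx1a (1.18, adjusted p = 0.291), Meis2 (0.82, adjusted p = 0.337) and Slc17a6 (0.29, adjusted p = 0.308), named after their values were seen, were not called. These uncalled genes were higher in 3 of 3 pairs without overlap between groups, and the groups did not overlap for 10.9% of all genes. Astrocyte markers, led by Gfap and Aqp4, gave 0 calls over 6 genes with a median of 0.01. Of 6 oligodendrocyte lineage markers 1 rose, Cspg4, a proteoglycan of the precursor cells (0.89, adjusted p = 0.00846), and their sum was 388 to 624 CPM in DMSO and 444 to 740 in GSK-126. Microglia markers, led by C1qa and Csf1r, gave 0 calls over 6 genes and summed to 170 to 270 CPM in DMSO and 193 to 428 in GSK-126, higher in each pair, and proliferation markers gave 0 calls over 6 genes. With treatment as the only term, 0 genes of any of these lists were called by edgeR after the filter on low counts, and 3 were called lower without that filter.

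**Figure D5:**
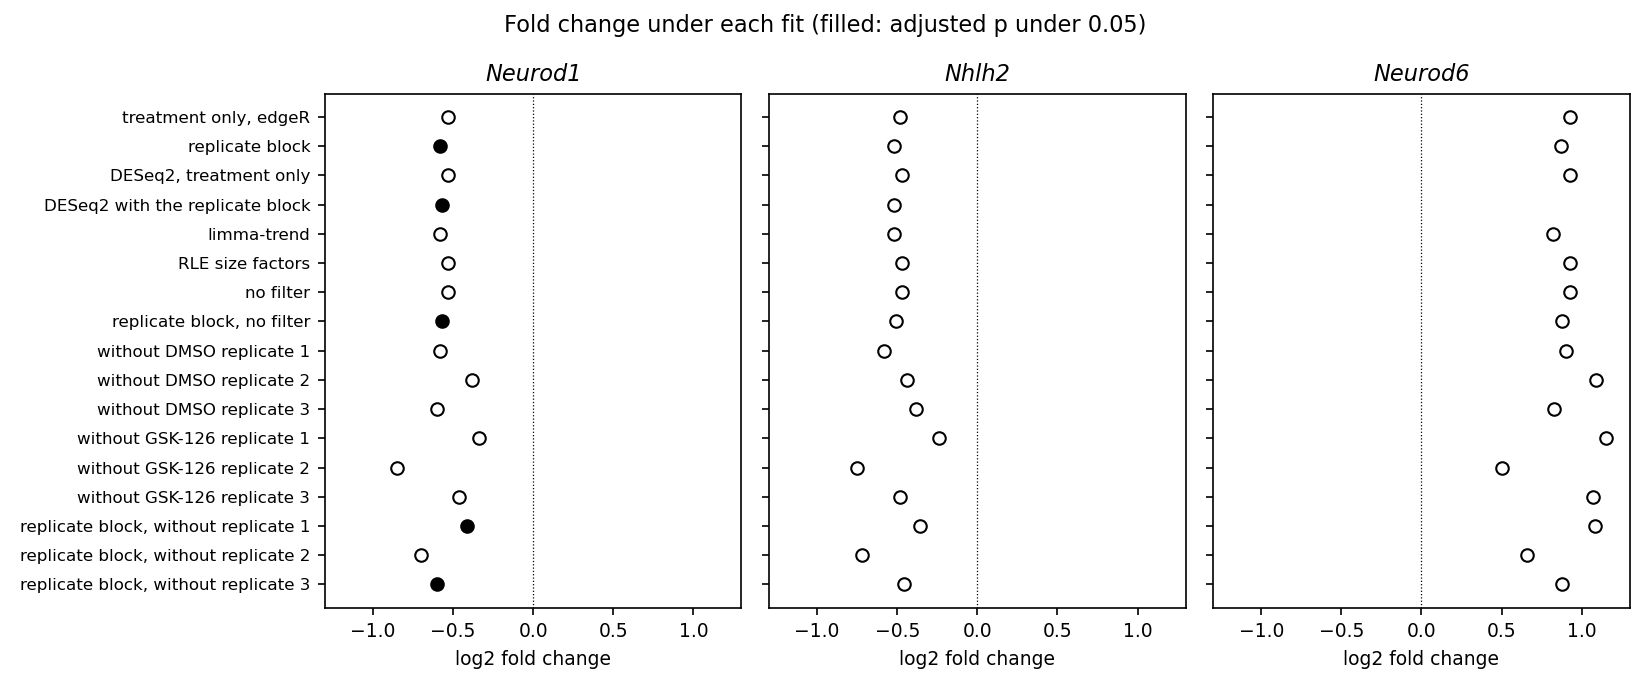
Log2 fold change of GSK-126 over DMSO for Neurod1, Nhlh2 and Neurod6 under each fit, one row per fit, with filled circles where the adjusted p was under 0.05. Neurod1 stayed under 0 in every fit and was called in 5 of the 16 alternatives, all of them with the replicate block, and Neurod6 has no point for DESeq2 with the block, which gave it no adjusted p.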

How the data were processed

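Poly(A) RNA of 6 CGN cultures was sequenced as paired-end reads. The authors deposited unnormalized read counts, whole numbers for each gene, in a separate table for each library. Per the labels and the study's methods, reads were trimmed with Trimmomatic 0.38, aligned to GRCm38 with STAR 2.7.2b and counted over exons with HTSeq; the strand setting is not given in the sources used here. HTSeq's 5 summary rows entered neither library sizes nor tests. Reads over no exon made up 44.8% to 46.7% per library and assigned reads 39.1% to 41.6%.

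Library totals ran from 8058760 to 12047837. Genes were filtered with filterByExpr (minimum count 10, by group) and scaled by TMM. Treatment was tested with the quasi-likelihood test of edgeR 4.0.16 in R 4.3.3, with Benjamini-Hochberg adjustment over 16343 genes and a threshold of 0.05. Deviations from group means of libraries with the same replicate number correlated at 0.35, 0.50 and 0.52, and those with different numbers from -0.41 to -0.01. The study defines a culture replicate by its pooled litters, so the numbers were taken to pair the libraries and the blocked values are printed. Alternatives were the replicate block, DESeq2 1.42.0, limma 3.58.1, RLE size factors, no filter, and leaving out each library or pair. The edgeR fits with and without the block were tested on simulated data.

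Every gene of the group is named. From each list the genes called in the blocked fit are named, otherwise the 2 of highest mean CPM, and for Neurod1, the gene of highest level, the 5 of highest r; some genes that this rule names are not reported here. The genes, lists and ratios were chosen with earlier results of these data known. Floors cover counting error only, since the reads carry no molecular identifiers.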

Additional observations from a re-analysis of the deposited data

How the results depend on the processing

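Without the block no member was called in any fit run, and the member estimates kept their direction except those of Neurod2 and Neurog2, which lay near 0. Of the member estimates under alternatives, 95 kept direction and side of the threshold, 5 were newly called (all Neurod1 with the block) and 9 changed sign. Neurod2 went to -0.07 without DMSO replicate 1, -0.13 without GSK-126 replicate 2 (range -0.13 to 0.11 over single libraries left out), and in the blocked fit to -0.00 without replicate 1 and -0.03 without replicate 2. Neurog2 ran from -0.37 to 0.77 without single libraries (-0.33, -0.14 and -0.37 without DMSO replicate 2, DMSO replicate 3 and GSK-126 replicate 3). In the blocked fit it ran from -0.37 to 1.05, with -0.29 without replicate 2 and -0.37 without replicate 3. Members called lower numbered 0 without the block and 1 with it, 1 in DESeq2 with the block, 1 in the blocked fit without the filter (an alternative chosen after seeing the data), and 0 to 1 with the block when a pair was left out, the call of Neurod1 being lost without replicate 2. Over all genes 0 were called by treatment alone, 365 higher and 232 lower with the replicate block, 46 and 13 in DESeq2, 408 and 266 in DESeq2 with the block, 55 and 30 without the filter, 708 and 428 with the block and no filter, and, in the blocked fit, 396, 125 and 211 higher and 308, 53 and 148 lower without replicates 1, 2 and 3. List genes called higher were 1 with the block, 1 in DESeq2 with the block, 3 with the block and no filter and 0 to 2 with a pair left out, and those called lower were 7, 8, 8 and 3 to 7, with 3 in the fit without block or filter. The cause of these differences was not tested. DESeq2 with the block gave no adjusted p to Neurod6, Neurog2 and Nhlh1, so its count of members covers the other 4 of 7. The counts of Neurog2, Nhlh1 and Neurod6 were low, and those of Atoh1 and Neurog1 were too low to pass the filter.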

Other observations

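Without the filter on low counts, Atoh1 had an adjusted p of 0.887 (edgeR) and, with the replicate block, of 0.984. Atoh7, a bHLH factor of retinal neurogenesis named here after its values were seen, had 4.03 ± 1.2 CPM in DMSO and 1.92 ± 0.729 in GSK-126 (SD, n = 3), lower in each pair, with a blocked log2 fold change of -1.09 (95% interval -1.94 to -0.24) and an adjusted p of 0.175.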
